A study of Mus musculus with 8 samples.

Results

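A set of 9 genes of the myelinating Schwann cell was followed in RNA from mouse spinal cord: Prx, Pmp22, Pmp2, Dhh, Cldn19, Ncmap, Drp2, Egr2 and Fam178b. They were taken by symbol from the deposited count table and are 9 of its 47643 gene rows. They were chosen by their homozygous against heterozygous levels in these same libraries, so that difference is given for them as a description and without a test. The study sequenced 1 spinal cord library from each of 8 C57BL/6 mice of 2 to 10 months, 4 labelled heterozygous and 4 labelled homozygous. Tamoxifen at 100 mg/kg was the stated means of deleting Arf1, which encodes a small GTPase of the Golgi. The labels name neither the allele that is heterozygous or homozygous nor the promoter or cell type that drives the deletion, and they give no age or sex for single animals.

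Peripheral axons are myelinated by Schwann cells and central axons by oligodendrocytes, and the border between them lies where the nerve roots join the cord. PMP22 is a protein of peripheral compact myelin. Outside compact myelin, periaxin (Prx) and DRP2 tie the Schwann cell membrane through dystroglycan to the basal lamina. The zinc finger factor EGR2, also called KROX20, switches on many genes of peripheral myelin together with SOX10. A spinal cord sample holds Schwann cells only as far as roots come with it, and in such bulk RNA fewer cells of a type and less RNA per cell cannot be told apart.

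The libraries held 26321522 to 37879426 expected counts. The library labelled homozygous replicate 1 goes against its label: its Arf1 level was 307 CPM (read counts scaled to library size), and the heterozygous libraries ranged from 296 to 334 CPM, while homozygous replicates 2, 3 and 4 were at 22.5, 22.8 and 39.9 CPM. Log2 fold changes of the 9 genes and medians of lists are therefore given with and without it. Homozygous replicate 3 had 2.44% ribosomal bases and 92.4% mapped reads, against at most 0.34% and at least 98.3% in the other 7, and homozygous replicate 4 had an RNA integrity number of 8 against 9. Heterozygous replicate 4 and homozygous replicate 4 carried high Xist (386 and 412 CPM) and low Ddx3y (2.62 and 3.91 CPM). The other 6 had Ddx3y at 39.8 to 51.1 CPM and Xist at 0 to 44.5 CPM. Defining genes of the cord were present: the neuronal gene Snap25 stood at 2839 ± 374 CPM and the oligodendrocyte gene Mog at 83.3 ± 18.6 CPM in the heterozygous libraries (SD, n = 4).

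RefSeq promoter windows (GRCm38.p6, the mm10 assembly) were found for 7 of the 9 genes, and the 250 bases before the start of 4 of them are printed. The letters GCGNGGG, the core of a site for EGR factors, were searched on both strands and stand in capitals; where copies overlap they merge. Each window reads 5′ to 3′ along its gene.

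Prx, chr7:27499074-27499323, plus strand: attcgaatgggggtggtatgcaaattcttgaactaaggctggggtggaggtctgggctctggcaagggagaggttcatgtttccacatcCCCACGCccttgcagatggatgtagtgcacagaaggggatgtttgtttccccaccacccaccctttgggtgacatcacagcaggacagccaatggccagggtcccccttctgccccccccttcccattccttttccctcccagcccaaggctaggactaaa

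Dhh, chr15:98898541-98898790, minus strand: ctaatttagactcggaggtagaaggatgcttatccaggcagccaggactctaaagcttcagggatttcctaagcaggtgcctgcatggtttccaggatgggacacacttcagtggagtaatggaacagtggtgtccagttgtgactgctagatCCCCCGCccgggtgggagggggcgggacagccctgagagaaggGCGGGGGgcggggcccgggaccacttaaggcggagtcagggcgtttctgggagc

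Ncmap, first of 2 starts, chr4:135398228-135398477, minus strand: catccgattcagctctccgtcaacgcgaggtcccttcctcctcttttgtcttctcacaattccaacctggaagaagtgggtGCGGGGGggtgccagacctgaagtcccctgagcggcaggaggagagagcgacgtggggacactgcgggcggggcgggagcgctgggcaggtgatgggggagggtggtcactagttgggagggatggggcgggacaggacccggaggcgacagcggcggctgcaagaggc

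Pmp22, first of 4 starts, chr11:63128732-63128981, plus strand: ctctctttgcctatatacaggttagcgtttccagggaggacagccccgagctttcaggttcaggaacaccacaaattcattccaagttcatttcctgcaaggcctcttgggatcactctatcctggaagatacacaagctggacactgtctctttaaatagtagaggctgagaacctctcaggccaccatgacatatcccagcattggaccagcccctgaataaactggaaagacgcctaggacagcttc

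The Prx and Ncmap windows hold 1 copy each, that of Dhh holds 2, and the first Pmp22 window holds 0. At least 1 window with these letters was found for 6 of the 7 genes, Cldn19 being the exception, against 22.2% of 27025 genes; genes with several starts have more windows to match. By the same count the letters ACAANG, read by SOX factors, were found for 2 of 7 genes, against 39.9% of genes. Those of TEAD factors, GGAATG, were found for 3 of 7, against 14.4%. The 6 genes with EGR letters include Egr2 itself, and Pmp22 through 1 of its 4 windows. A match of letters is a description of the window and not a site. The level of Egr2 did not follow that of the other genes, and a part of EGR2 in their levels was not tested.

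Of the 9 genes, 7 were lower in every library labelled homozygous than in any heterozygous one: Prx, Pmp22, Pmp2, Dhh, Cldn19, Drp2 and Fam178b. The same separation was seen in 4.67% of the 16511 genes tested, and nothing is read from the difference, since the genes were chosen with it known. Ncmap was lower with a slight overlap. Egr2 went the other way. All 9 genes passed the filter on low counts. Of the 9, 8 had a negative log2 fold change, as did 49.6% of all genes. The median of the 9 was -2.42, against 0.0015 over all genes tested, and 7 of the 9 were below -1, as were 0.878% of all genes. Without the library labelled homozygous replicate 1 the median of the 9 was -2.35.

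**Figure D1:**
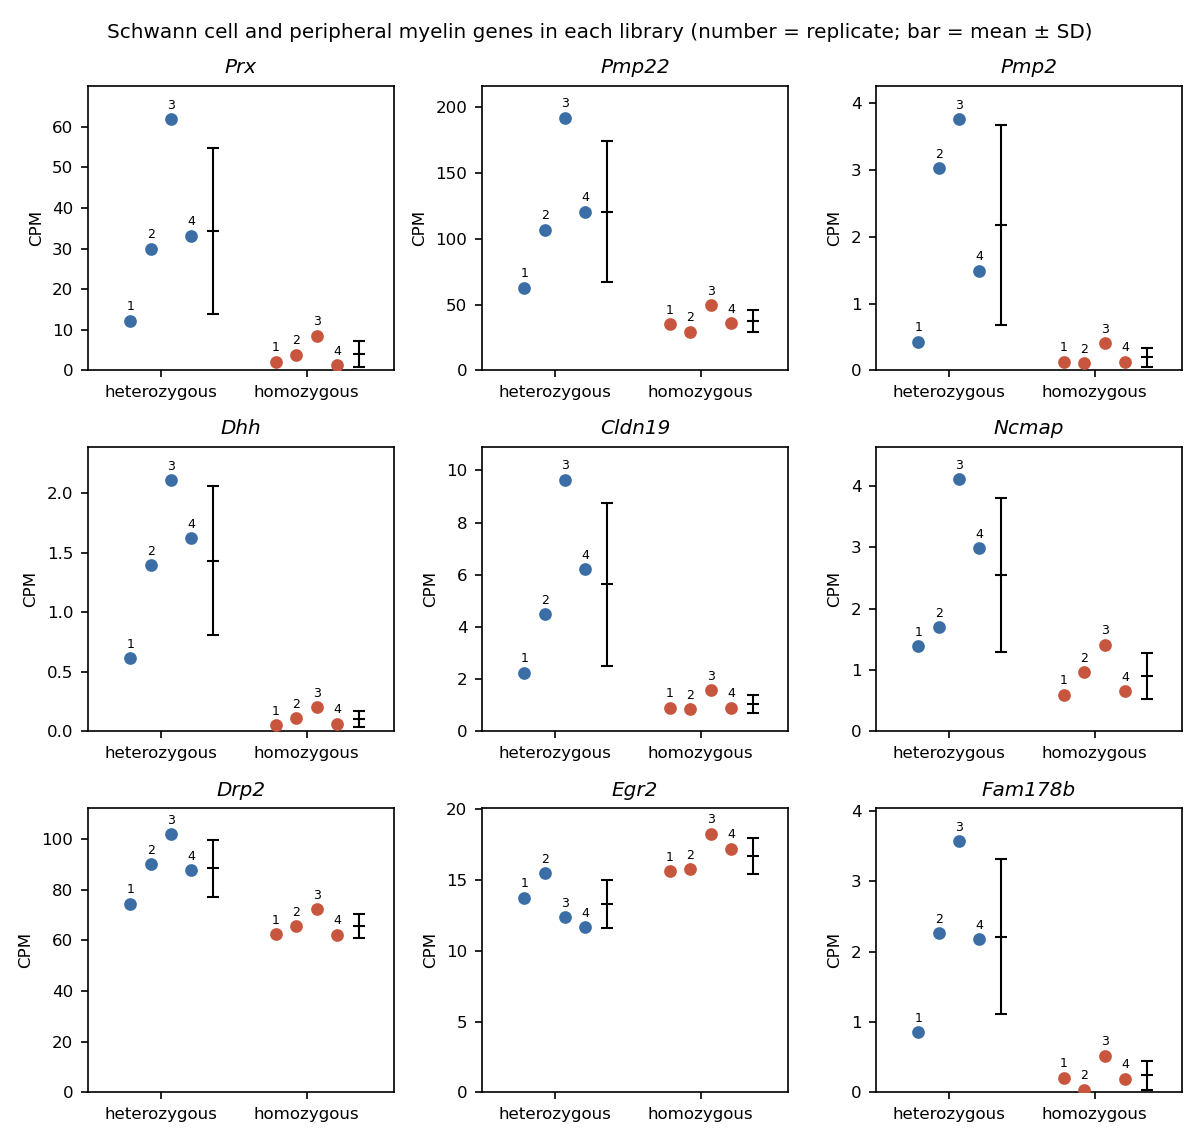
Level of each of the 9 genes in CPM (linear axes from 0) in the 4 heterozygous and 4 homozygous libraries. Each point is 1 library, with its replicate number above it, and the bar beside each group is the mean ± SD. The groups lie apart with the homozygous libraries below for 7 genes, overlap for Ncmap, and lie apart the other way for Egr2.

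Prx, the scaffold of the Schwann cell membrane, stood at 12.3, 29.9, 61.8 and 33.2 CPM in heterozygous replicates 1 to 4. In replicates 1 to 4 labelled homozygous it was at 2.14, 3.91, 8.58 and 1.34 CPM. The groups did not overlap, and the lowest heterozygous library was 1.43 times the highest homozygous one. The log2 fold change was -3.14 (SE 0.72), and -2.92 (SE 0.82) without the library labelled homozygous replicate 1. Prx lies on the plus strand of chromosome 7, from 27499324 to 27520214 (GRCm38).

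Drp2 encodes the dystrophin relative that periaxin binds at the membrane, and brain tissue expresses it too. Its level was 74.4, 90.1, 102 and 87.6 CPM in heterozygous replicates 1 to 4 and 62.5, 65.6, 72.2 and 62.2 CPM in the homozygous ones. These groups did not overlap but lay close, with a log2 fold change of -0.43 (SE 0.09), or -0.41 (SE 0.10) in 7 libraries, without the one labelled homozygous replicate 1. The difference was smaller than that of its partner Prx: the level of Drp2 in the homozygous libraries was 70.3% to 81.6% of the heterozygous mean, against 3.9% to 25.0% for Prx. Drp2 spans 134404551 to 134456573 on chromosome X.

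Of the 9 genes, Pmp22 had the highest level per transcript length. This tetraspan membrane protein was at 62.9, 107, 192 and 121 CPM in heterozygous replicates 1 to 4 and at 35.2, 29.5, 49.6 and 35.9 CPM in homozygous replicates 1 to 4. Every homozygous library was below every heterozygous one, at 24.4% to 41.1% of the heterozygous mean. The log2 fold change was -1.68 (SE 0.34), and -1.65 (SE 0.40) in the 7 libraries. Many cell types express Pmp22 at a low level. It lies on chromosome 11 from 63128982 to 63159547, on the plus strand.

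Pmp2, a fatty acid binding protein of the myelin sheath, was at 0.427, 3.03, 3.75 and 1.49 CPM in heterozygous replicates 1 to 4. In the homozygous libraries it was at 0.131, 0.112, 0.403 and 0.130 CPM, from 3 to 10 counts each. The groups nearly touched, heterozygous replicate 1 being 1.06 times homozygous replicate 3, and the log2 fold change was -3.52 (SE 0.72) with 8 libraries and -3.35 (SE 0.86) with 7. Pmp2 had the widest heterozygous range of the 9 genes, 8.78-fold.

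Dhh, the hedgehog ligand that Schwann cells send to the sheath around the nerve, stood at 0.615, 1.40, 2.11 and 1.62 CPM in the heterozygous libraries. In the homozygous libraries it was at 0.0522, 0.112, 0.201 and 0.0652 CPM, which rest on 2, 3, 5 and 2 counts. Its lowest heterozygous library was 3.05 times its highest homozygous one, the widest gap of the 9 genes. Its log2 fold change of -3.78 (SE 0.50) was also the largest in size, and was -3.51 (SE 0.55) without the library labelled homozygous replicate 1. The Dhh gene spans 98891152 to 98898540 on chromosome 15, minus strand.

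Cldn19, the claudin of the tight junctions within peripheral myelin, was at 2.24, 4.49, 9.64 and 6.20 CPM in heterozygous replicates 1 to 4 and at 0.914, 0.856, 1.57 and 0.913 CPM in the homozygous ones. The groups did not overlap, and the log2 fold change was -2.42 (SE 0.43) with 8 libraries and -2.35 (SE 0.51) with 7. Ncmap, a small membrane protein of noncompact myelin, was at 1.39, 1.70, 4.11 and 2.98 CPM and at 0.601, 0.968, 1.41 and 0.652 CPM. Here homozygous replicate 3 was just above heterozygous replicate 1. The log2 fold change of Ncmap was -1.51 (SE 0.39) with 8 libraries and -1.35 (SE 0.43) with 7. The means of Ncmap were 2.54 ± 1.25 and 0.908 ± 0.372 CPM (SD, n = 4 and 4).

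Fam178b had 0.855, 2.26, 3.56 and 2.17 CPM in heterozygous replicates 1 to 4. In homozygous replicates 1 to 4 it had 0.209, 0.0372, 0.524 and 0.196 CPM, from 8, 1, 13 and 6 counts. The groups did not overlap, and the log2 fold change was -3.21 (SE 0.58) with 8 libraries and -3.15 (SE 0.70) with 7. It spans 36562692 to 36683183 on the minus strand of chromosome 1.

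Egr2, the factor that drives peripheral myelin genes, was the exception among the 9. It stood at 13.7, 15.5, 12.4 and 11.7 CPM in heterozygous replicates 1 to 4 and at 15.6, 15.7, 18.3 and 17.2 CPM in the homozygous ones, so every homozygous library was above every heterozygous one. All homozygous libraries lie above in 4.61% of the genes tested. The log2 fold change was 0.33 (SE 0.10) with 8 libraries and 0.36 (SE 0.11) with 7. In the deposited TPM, which are scaled to depth in another way than CPM and to transcript length, the groups overlapped, at 7.39 to 9.41 TPM against 8.37 to 9.72 TPM. The weighted transcript length of Egr2 was 2960.3 bases in the heterozygous and 2960.2 bases in the homozygous libraries. In TPM the same 7 genes lay apart below, as did 13.6% of all genes in that direction and 0.752% in the other. Egr2 is also an early response gene of neurons and immune cells. A list of 9 early response genes held 0 that passed edgeR's test with 8 libraries. Before adjustment 4 were higher with p below 0.05, as were 7.87% of all genes. DESeq2 called Fos and Junb higher, as it did 270 of all 16511 genes. The median log2 fold change of the list was 0.28 with 8 libraries and 0.36 with 7. Within it Egr1 was at 217 to 319 CPM in heterozygous and 294 to 363 CPM in homozygous libraries, and Fos at 33.7 to 46.5 and 44.9 to 57.5 CPM. The part of these early response genes in the Egr2 level was not tested.

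Levels can be set against each other per transcript length. In the heterozygous libraries Pmp22 was at 134.6 ± 57.1 TPM, Drp2 at 22.4 ± 2.68, Prx at 12.4 ± 7.09, Egr2 at 8.23 ± 0.889 and Fam178b at 5.33 ± 2.56 TPM (SD, n = 4). Below these came Cldn19 at 3.99 ± 2.16, Ncmap at 3.32 ± 1.62, Pmp2 at 3.05 ± 2.03 and Dhh at 1.14 ± 0.487 TPM. Pmp22 stood clear of Drp2, and Drp2 narrowly of Prx, by more than 1 SD on each side. From Prx down, each gene overlapped the next within 1 SD. In the homozygous libraries Egr2 (9.15 ± 0.567 TPM) stood above Prx (1.21 ± 0.936 TPM), and Ncmap (1.18 ± 0.547 TPM) and Prx were alike within their spread. Dhh was at the bottom in both groups, at 0.0750 ± 0.0404 TPM in the homozygous one.

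**Figure D2:**
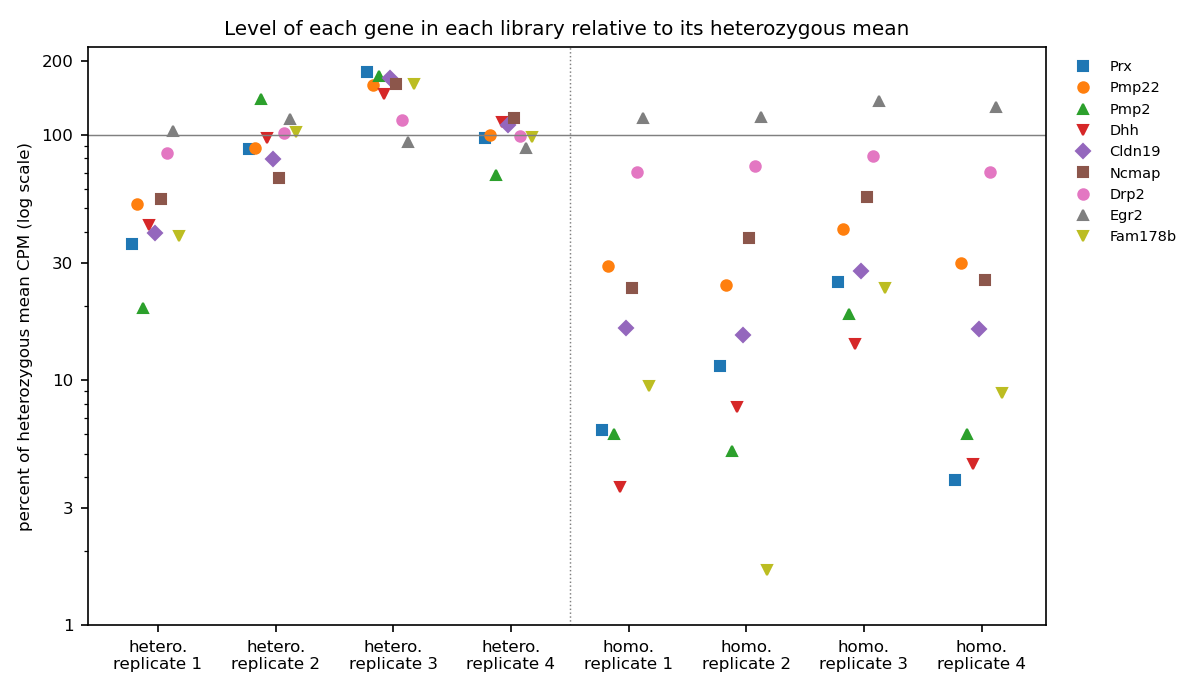
Level of the 9 genes in each of the 8 libraries as a percent of the gene's own heterozygous mean CPM (log axis; the line marks 100 percent; 1 point per gene and library). Heterozygous replicate 3 is high for all genes but Egr2, and in the homozygous libraries the genes fan out from Egr2 above 100 percent to Fam178b at 1.68 percent in replicate 2.

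The genes varied together within each genotype, in the same library values by which they were chosen. Heterozygous replicate 3 was the highest and heterozygous replicate 1 the lowest of their group for 8 of the 9 genes, all but Egr2. Homozygous replicate 3 was the highest of its group for all 9. For Dhh, Pmp2 and Fam178b this rests on 2 to 5, 3 to 10 and 1 to 13 counts per homozygous library. The 3 positions held together for 8 of the 9 genes and for 2.91% of all genes tested. The pattern was noticed in these data first, so it is a description and no separate result. Heterozygous replicate 3 stood at 115% of the heterozygous mean for Drp2 and at 147% to 180% for the other 7 of these 8 genes. Heterozygous replicate 1 stood at 19.7% for Pmp2, 35.8% for Prx, 52.2% for Pmp22 and 84.1% for Drp2.

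The spread among heterozygous animals was large for most of these genes. Between the lowest and the highest heterozygous library Prx ranged 5.04-fold, Cldn19 4.30-fold, Fam178b 4.17-fold, Dhh 3.43-fold, Pmp22 3.05-fold and Ncmap 2.96-fold. A range as wide as that of Prx was found in 0.999% of all genes tested, and one as wide as that of Ncmap in 3.06% (with 0.1 CPM added to each value). Drp2 and Egr2 ranged 1.37- and 1.32-fold, and 33% and 38.5% of all genes ranged as widely.

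The library labelled homozygous replicate 1 followed its label in these genes and not its Arf1 level. Its levels were among those by which the genes were chosen, so this is a description and no separate result. This library had 6.25% of the heterozygous mean of Prx, 3.64% of Dhh, 6% of Pmp2, 16.2% of Cldn19 and 29.2% of Pmp22. It lay within the range of the other 3 homozygous libraries for 6 of the 9 genes. It was below them for Dhh (lowest of the others 4.54%), for Ncmap (23.6% against 25.6%) and for Egr2 (117% against 118%). In the pair of libraries with high Xist the direction was the same: Prx was at 33.2 CPM in heterozygous replicate 4 and 1.34 CPM in homozygous replicate 4. Among the 6 libraries with high Ddx3y Prx ranged from 12.3 to 61.8 CPM in the heterozygous and from 2.14 to 8.58 CPM in the homozygous ones. The groups did not overlap for Prx, a gene chosen for this difference, so any such subset has this direction. The part of sex in these levels was not tested. Homozygous replicate 4, with the lower RNA integrity number, had the lowest Prx and Drp2, while homozygous replicate 3, with the most ribosomal bases, was the highest homozygous library for every one of the 9 genes. The part of RNA quality in these levels was not tested.

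The authors' deposited table of their own comparison lists 185 genes, among them 7 of the 9. For scale, 16511 genes were tested here with 8 libraries. The 9 were chosen by this same difference in these libraries, so their place among the 185 is no separate result. Drp2 and Egr2 are not among its genes. In the authors' deposited table the log2 fold change is -3.84 for Dhh, -3.76 for Pmp2, -3.49 for Fam178b, -3.28 for Prx, -2.69 for Cldn19, -1.95 for Pmp22 and -1.63 for Ncmap. The authors' deposited gene tables of that comparison hold 6 libraries, without heterozygous replicate 1 and homozygous replicate 1. Heterozygous replicate 1 is the heterozygous library with the lowest level of 8 of the 9 genes.

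Genes outside the 9 were tested on the same fit. With 8 libraries edgeR called 0 genes higher and 0 lower of 16511 (0.0% in each direction), while 1299 (7.87%) and 1470 (8.9%) had p below 0.05 before adjustment. Of the same 16511 genes DESeq2 called 270 higher and 409 lower, and limma-voom 0 and 0. Of the other lists, edgeR with 8 libraries thus called 0 genes, and DESeq2 with 8 libraries called 20. Without the library labelled homozygous replicate 1, left out for its Arf1 level, edgeR called 91 higher (0.55%) and 111 lower (0.67%) of 16560. The lists were put together with earlier results of these libraries known.

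Among 15 other genes of myelinating Schwann cells, 14 had a negative log2 fold change, with a median of -0.32 against 0.0015 over all genes (-0.36 with 7 libraries). A negative value was found in 49.6% of all genes. By edgeR 0 passed with 8 or with 7 libraries. In each fit 5 were lower with p below 0.05 before adjustment, as were 8.9% of all genes with 8 libraries. DESeq2 called Slc36a2 and Gldn lower. Over all genes DESeq2 called 409 of 16511 lower and 270 higher. Of the 15, 3 were lower in every homozygous library, as were 4.67% of all genes: Gldn, Sbspon and Slc36a2. Gldn, the gliomedin of the node of Ranvier, was at 1.66 to 2.96 CPM in the heterozygous and 1.04 to 1.65 CPM in the homozygous libraries. Slc36a2, an amino acid transporter, was at 0.802 to 2.52 and 0.112 to 0.444 CPM (log2 fold change -2.26 with SE 0.45; adjusted p by edgeR = 0.101). The gap junction genes Gjb1 and Gjc3, which oligodendrocytes also express, had log2 fold changes of -0.45 (SE 0.23) and -0.23 (SE 0.15). Of 8 tested genes of non-myelinating and immature Schwann cells 0 passed either edgeR fit, while DESeq2 called Sox2 higher and Scn7a lower. Their median was -0.13 with 8 libraries and -0.18 with 7. Among them the neurotrophin receptor Ngfr was at 0.931 to 3.93 and 0.967 to 1.71 CPM.

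**Figure D3:**
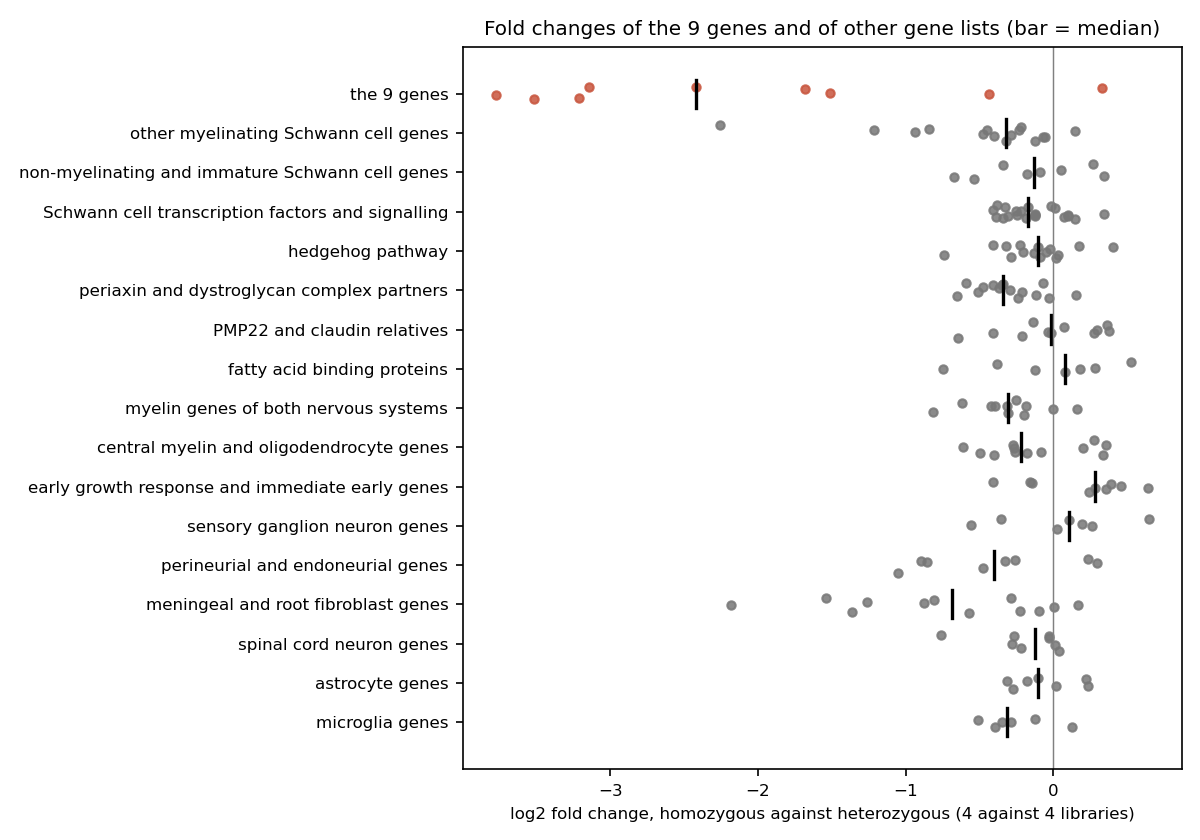
Log2 fold change, homozygous against heterozygous, of each tested gene (1 point per gene) in the 9 genes and in 16 other lists; the bar is the list's median. The 9 genes have a median of -2.42, and the next lowest median is that of meningeal and root fibroblast genes at -0.69.

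The transcription factors and signals of the Schwann cell, 21 genes, had a median of -0.17 with 8 libraries as with 7. They had 0 calls in either edgeR fit, while DESeq2 called Yap1 lower and Sox2 higher (409 lower and 270 higher of 16511 genes). Sox10, the partner of EGR2, which oligodendrocytes also express, was at 38.1 to 45.8 CPM in the heterozygous and 26.3 to 41.8 CPM in the homozygous libraries, and the groups overlapped. Pou3f1, the factor of the promyelinating Schwann cell, was at 12.7 to 18.2 and 13.4 to 21.4 CPM. The hedgehog pathway list holds the ligands Shh and Ihh beside receptors and targets. It had 0 of 15 tested genes past edgeR's test with 8 libraries and a median of -0.10 (-0.13 with 7). By edgeR 1 fell without the library labelled homozygous replicate 1, Hhip, a decoy receptor of hedgehog ligands, at 4.78 to 6.89 CPM against 2.38 to 3.52 CPM (by edgeR, adjusted p = 0.0495, log2 fold change -0.97 with SE 0.19; adjusted p = 0.157 with 8 libraries, and 0.0424 by DESeq2). In the left-out library Hhip was at 4.67 CPM. The receptor Ptch1 was at 60.4 to 85.3 and 49.0 to 69.2 CPM and the target Gli1 at 1.31 to 3.01 and 1.31 to 2.42 CPM over the 8 libraries, and neither passed.

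For the partners of periaxin and DRP2 at the basal lamina the median log2 fold change was -0.34, and -0.37 with 7 libraries. A negative value was found for 14 of 15 tested, against 49.6% of all genes. Every homozygous library was lower for 6 of the 15, against 4.67% of all genes: Dag1, Dmd, Utrn, Lamc1, Itga6 and Itgb1. Dag1, which encodes dystroglycan, was at 103 ± 5.35 against 87.1 ± 7.53 CPM (SD, n = 4 each; adjusted p by edgeR = 0.166). Utrn, utrophin, fell without the library labelled homozygous replicate 1 (by edgeR, adjusted p = 0.0406, log2 fold change -0.56 with SE 0.10), and by edgeR did not pass with 8 libraries (0.0974). No other gene of the list passed either edgeR fit, while DESeq2 with 8 libraries called 5 lower: Utrn (adjusted p = 0.000415), Lamc1, Dmd, Itga6 and Itgb1. Over all genes DESeq2 called 409 of 16511 lower. The genes of this list are also expressed by vessels, astrocytes and meninges.

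Relatives by protein family came next. Of 11 relatives of PMP22 and the claudins the median log2 fold change was -0.01, and 0.03 with 7 libraries. Emp2, of the family of Pmp22, fell without the library labelled homozygous replicate 1 (by edgeR, adjusted p = 0.028, log2 fold change -0.77 with SE 0.12; 0.117 with 8 libraries, and 0.00194 by DESeq2). Its sister genes Emp1 and Emp3 had log2 fold changes of -0.21 and -0.01 with 8 libraries and did not pass. Among 7 tested fatty acid binding proteins, the family of Pmp2, 0 passed by edgeR or DESeq2 (0 with p below 0.05 before adjustment by edgeR), and the median was 0.08 (0.11 with 7 libraries).

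Myelin genes that Schwann cells share with oligodendrocytes stood at higher levels than the 9 in sum, at 8543 to 9962 CPM in the heterozygous and 6153 to 12456 CPM in the homozygous libraries. Mbp was at 5821 ± 297 CPM in the heterozygous and 5818 ± 1780 CPM in the homozygous libraries (SD, n = 4 and 4). Over the 11 shared genes the median log2 fold change was -0.30 (-0.29 with 7 libraries). By edgeR or DESeq2 0 passed. By edgeR with 8 libraries 3 were lower with p below 0.05 before adjustment, as were 8.9% of all genes. Ugt8a was the only one lower in every homozygous library, as were 4.67% of all genes. Of 12 central myelin and oligodendrocyte genes the median was -0.22 (-0.24 with 7 libraries). By edgeR 1 of them, Gpr37, fell without the library labelled homozygous replicate 1 (edgeR adjusted p = 0.0478; 0.151 with 8 libraries, and 0.0213 by DESeq2). Mobp and Nkx6-2 were above the heterozygous range in all 4 homozygous libraries without passing, and 4.61% of all genes lay above in this way. Homozygous replicate 4 had the highest Mbp of the 8 libraries, at 8234 CPM, beside the lowest Prx. The differences in response between the peripheral and central lists were not tested, since the peripheral genes were chosen for theirs.

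Other cell types of the roots and their coverings were read from their markers. Genes of meningeal and root fibroblasts had a median of -0.69 (-0.62 with 7 libraries), with 10 of 12 negative against 49.6% of all genes. Col1a1, Col3a1, Dcn and Lum, 4 of the 12, were lower in every homozygous library, against 4.67% of all genes. DESeq2 called these 4 lower, against 409 of 16511 genes. The summed level of all 12 genes was 169 to 317 CPM in the heterozygous and 153 to 221 CPM in the homozygous libraries. Col3a1, a fibrillar collagen, was at 5.29 to 11.9 and 0.856 to 2.32 CPM and passed edgeR's test (adjusted p = 0.0498) when the library labelled homozygous replicate 1 was left out but not with 8 libraries (0.0962, against 4.13e-07 by DESeq2). Perineurial and endoneurial genes had a median of -0.40 over 8 tested (-0.49 with 7 libraries), with summed levels of 86.2 to 99.4 and 75.2 to 81.9 CPM. By edgeR 0 of those 8 passed with 8 or 7 libraries, and DESeq2 called Col15a1 lower. Markers of sensory ganglion neurons were low throughout, with a summed level of 4.46 to 19.9 CPM in the heterozygous and 6.37 to 10.2 CPM in the homozygous libraries, and 5 of the 12 did not reach the filter. No gene of these marker lists was at 0 in every library. The part of fibroblast or root tissue in the levels of the 9 genes was not tested.

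Markers of the cord itself overlapped between the groups in sum. The summed level of 8 neuronal genes was 4609 to 5779 CPM in the heterozygous and 4791 to 5401 CPM in the homozygous libraries, and that of 7 astrocyte genes 3298 to 3871 and 2646 to 3478 CPM. The median log2 fold change of 6 microglial genes, at 261 to 319 and 227 to 286 CPM in sum, was -0.31 with 8 libraries and -0.46 with 7. Of them Tmem119 fell without the library labelled homozygous replicate 1 (edgeR adjusted p = 0.0462; 0.229 with 8 libraries, and 0.128 by DESeq2).

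By profile over the 8 libraries, the 10 genes nearest to the mean of the 9 were Plekha4, Dcn, Kdelr3, Mfap5, Lum, P2ry2, Lox, Acta2, Gas2l3 and Olfr558. The measure was the root mean square difference in log2-CPM, each gene taken about its own mean, and it ran from 0.23 for Plekha4 to 0.50 for Olfr558. By the same measure Cldn19 was at 0.21, Pmp22 at 0.23 and Ncmap at 0.39. Dhh, Pmp2, Fam178b and Prx, which differ more in size, were at 0.61, 0.67, 0.72 and 0.81. Drp2, which differs less, was at 0.85. Egr2, which goes the other way, was at 1.25 and did not share the profile (rank 14776 by this measure). Plekha4 was at 2.51, 5.35, 11.6 and 7.15 CPM in heterozygous replicates 1 to 4 and at 1.07, 1.67, 2.46 and 1.24 CPM in the homozygous ones. Dcn, Lum, Mfap5 and Lox are matrix genes of fibroblasts, and Acta2 is the actin of smooth muscle. A gene near this profile has the genotype difference by construction, so its difference is no separate result.

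The mean transcript length that RSEM weights by isoform abundance was compared as a readout that the choice of genes did not use. It was the same in every library for Dhh and Pmp2 and could be tested for the other 7. For Prx it was 4886 ± 55.4 bases in the heterozygous and 5090 ± 142 bases in the homozygous libraries (SD, n = 4 and 4), and the groups overlapped (exact permutation, two-sided, p = 0.0857, adjusted over the 7 genes p = 0.55). None of the 7 passed, and the smallest p this design allows, before adjustment over the 7 genes, is 0.0286. A single gene at that p could not pass once adjusted over the 7, so nothing is read from the lack of a pass. The Prx values rest on 41 to 213 counts in the homozygous libraries, and those of Fam178b on 1 to 13.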

How the data were processed

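The submitters' processing notes name cutadapt, STAR, Picard, RSEM and the mm10 build; their versions and settings are not given. The authors deposited RSEM expected counts and TPM per gene and library, per the file headers, with FPKM and other values such as weighted transcript length. The authors' deposited table of their comparison holds log2 fold changes and p-values; its fold changes are quoted. The authors' deposited log2-CPM table and the FPKM column were not used further, and the column names of the authors' gene tables gave their 6 libraries. The deposited sequencing report gave other quality values.

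Expected counts were rounded. RSEM divides reads shared by similar genes. Groups come from the genotype label. Replicate numbers follow deposition order, pair no samples, and nothing says more of how animals were matched. The genotypes were contrasted with edgeR 4.0.16 (R 4.3.3): TMM, filterByExpr, robust quasi-likelihood fit, Benjamini-Hochberg over all genes tested, threshold 0.05. CPM are TMM-scaled. SE is the log2 fold change over the root of the F statistic. Gene positions are from GENCODE M21, which holds 47224 of the 47643 identifiers. Alternatives used DESeq2 1.42.0, limma 3.58.1 (voom, or log2(TPM + 1)), other scaling and filters, Xist as a covariate, other thresholds, and fewer libraries. Python 3.11.15 drew figures and ran exact permutation tests.

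The members and the 16 other lists, some of which share genes, were chosen with earlier results of these data known. Named genes were the 9, Arf1, up to 4 genes past the threshold per list, list members as values, and the 10 nearest profiles, leaving out predicted, Xist and Y-linked genes. The fit was tested on simulated counts with known changes in genes with a mean above 1 CPM. It recovered 58.2% of 1.5-fold, 86.6% of 2-fold and 100% of 4-fold changes, and 8.43% of its calls were false. Lower genes were not among those changed. One gene of these lists is not reported here. The deposited RPKM table and demultiplexing summary were not used.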

Additional observations from a re-analysis of the deposited data

Results flagged for a closer look

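Of 32 groups of 4 libraries (16 genes in both genotypes) examined for 1 library far from the other 3, 4 held one; chance gives about 1 in 20. Among homozygous libraries Pmp2 stood apart in replicate 3, at 0.403 CPM, and so did Cldn19, at 1.57 CPM. Arf1 stood apart in the library labelled homozygous replicate 1, at 307 CPM, and Col3a1 in homozygous replicate 2, at 0.856 CPM.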

How the results depend on the processing

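No paired analysis was possible because the labels give no shared replicate numbers. The 9 genes were chosen for their genotype difference, and in CPM 7 of them lay apart below and Egr2 above. A change of sign was thus hardly possible, and over 17 alternatives 0 of 150 log2 fold changes of the 9 genes changed sign. Their median of -2.42 moved to -1.60 with a filter of 1 CPM in 4 libraries, which left 6 of them, to -1.45 with limma on log2(TPM + 1), which understates low genes and where the median of all genes was -0.14, and lay between -2.69 and -2.03 with 1 library left out, the smallest in size being without heterozygous replicate 3. Dhh was at -0.96 on the log2 TPM scale. Genes called higher and lower were 0 and 0 with the main settings, 270 and 409 with DESeq2, 19 and 44 with no filter, 72 and 160 in the 6 libraries that the authors' tables hold, and 21 and 50 at an adjusted p of 0.1; the cause was not tested. With 1 library left out, between 0 and 91 were higher and between 0 and 111 lower: 4 and 36 without heterozygous replicate 1, 91 and 111 without the library labelled homozygous replicate 1, and 0 and 0 without any other. Utrn, Emp2, Gpr37, Hhip and Col3a1, called by edgeR without the library labelled homozygous replicate 1, were also called by DESeq2 with 8 libraries and by edgeR in the 6 libraries; edgeR also called Utrn without heterozygous replicate 1 (adjusted p = 0.0468) and with no filter (0.0357). The 2 to 5 counts of Dhh in the homozygous libraries limit how exactly its level is known. Each sample has its own animal number, so p-values measure the spread between these animals.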
